A study of Mus musculus with 60 samples.

Results

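Duxf3, the mouse gene that encodes the transcription factor Dux, and 6 genes transcribed around the 2-cell stage, Zscan4c, Zscan4d, Zscan4f, Zfp352, Tcstv1 and Tcstv3, were followed through preimplantation development. These 7 genes were taken by name, through their Ensembl identifiers, from a table of 27238 genes, and all 7 were in it. The table held 60 mouse RNA-seq libraries in 20 groups of 3. In vivo embryos came from C57BL/6 females mated with DBA2 males, NTC embryos were made by transfer of a cumulus cell (CC) nucleus into an enucleated oocyte, and NTM embryos by transfer of the nucleus of a mouse embryonic fibroblast (MEF). Each of the 3 types was sampled as single embryos at 6 stages, namely blastula, morula and 1, 2, 4 or 8 cells, and CC and MEF donor cells formed the other 2 groups. All samples were of the BDF1 strain (C57BL/6 × DBA2). Oocytes for nuclear transfer (NT) came from superovulated BDF1 females 8 to 10 weeks old. The age of the females mated for in vivo embryos was not given in the sources used here. MEFs came from fetuses and were passaged in culture, and those used as nuclear donors were held in low serum before transfer. Both NT types, and no in vivo embryo, were exposed to cytochalasin B and activated with strontium. NT embryos alone were also exposed to Scriptaid, an inhibitor of histone deacetylases, and cultured in vitro. The embryos sequenced were picked by morphology. At any stage the NT procedure, the drugs, the culture and the exact age of the embryo therefore cannot be told apart.

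Dux is a double homeobox protein that appears briefly as the mouse embryo starts to transcribe its own genome, and it binds and switches on many genes of the 2-cell stage. The Zscan4 genes encode SCAN-domain zinc finger proteins tied to telomere upkeep in 2-cell embryos and embryonic stem cells. Zfp352 encodes a zinc finger protein, and Tcstv1 and Tcstv3 are named for their expression as a variable group at that stage. In somatic cells this set of genes is normally silent.

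The values are RPKM, reads scaled to transcript length and to mapped reads, so levels can be compared between genes per length. The steps between low values gave back whole reads, which put depth on genes at 5294167 to 47830132 reads per library, with a median of 14718210 over the 54 embryo libraries. At the 2-cell stage depth was 13894745 to 18619638 reads in vivo, 5294167 to 11955609 for NTC and 12384492 to 19596658 for NTM. The summed level of 10 oocyte markers in the 2-cell libraries was 2690 to 3083 RPKM in vivo, 1859 to 2467 for NTC and 2337 to 2531 for NTM, against 0 to 10.4 in the donor cells. The 11 cumulus markers summed to 310.0 to 553 RPKM in CC and 516 to 1230 in MEF cells, and to at most 8.20 in any 2-cell library. The 11 fibroblast markers summed to 8895 to 11694 RPKM in MEF cells and to at most 11.2 in any 2-cell library. The 11 trophectoderm and inner cell mass markers summed to 12.9 to 34.7 RPKM in the 2-cell libraries. Members were near silent in the 6 donor libraries, where the highest value of any of them was 0.105 RPKM (Tcstv3, 3 reads over all 6 libraries).

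RefSeq promoter windows on GRCm38.p6, 250 bases before to 50 bases after the annotated start, were found for 5 of the 7 genes. The 250 upstream bases of Duxf3, of a pair of Zscan4 genes and of Zfp352 are shown because these genes moved differently at the 2-cell stage. Capitals mark the letters TGATTNAA, which are the left part of the longer motif described for Dux, the letters TATAAA of a TATA box, and the letters TAATCC. Each motif was searched on both strands, and the searched letters do not overlap each other in these windows.
Duxf3, chr10:58233090-58233339, minus strand: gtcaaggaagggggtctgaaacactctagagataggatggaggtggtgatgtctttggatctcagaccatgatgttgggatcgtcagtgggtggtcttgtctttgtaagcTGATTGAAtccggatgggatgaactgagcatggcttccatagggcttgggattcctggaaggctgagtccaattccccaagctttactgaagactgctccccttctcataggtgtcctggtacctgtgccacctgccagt
Zscan4c, chr7:11005495-11005744, plus strand: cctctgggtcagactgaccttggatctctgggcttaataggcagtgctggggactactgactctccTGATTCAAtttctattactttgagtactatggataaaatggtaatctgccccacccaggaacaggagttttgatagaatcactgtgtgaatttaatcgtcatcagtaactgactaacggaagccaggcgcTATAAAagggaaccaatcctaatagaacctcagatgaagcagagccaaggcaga
Zscan4d, chr7:11166149-11166398, minus strand: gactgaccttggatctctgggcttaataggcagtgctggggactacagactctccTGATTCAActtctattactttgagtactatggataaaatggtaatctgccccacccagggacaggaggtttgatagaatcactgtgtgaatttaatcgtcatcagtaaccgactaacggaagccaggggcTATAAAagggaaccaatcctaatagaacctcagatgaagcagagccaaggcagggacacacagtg
Zfp352, chr4:90218570-90218819, plus strand: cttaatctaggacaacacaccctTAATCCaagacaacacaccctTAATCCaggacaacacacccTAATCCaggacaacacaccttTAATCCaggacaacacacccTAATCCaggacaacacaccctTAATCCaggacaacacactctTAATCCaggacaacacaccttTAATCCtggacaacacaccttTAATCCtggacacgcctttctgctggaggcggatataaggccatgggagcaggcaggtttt

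The Zscan4 windows were close copies of each other. Zscan4c and Zscan4f were identical at 99.3% of 277 aligned bases, and Zscan4d matched Zscan4c at 97.2% of 289. Each of the Zscan4c, Zscan4d and Zscan4f windows held 1 TATAAA, 54, 65 and 31 bases before the annotated start, and 1 TGATTNAA, 184, 195 and 161 bases before it. Over all 32851 windows, 13.6% held TATAAA, 2.87% held TGATTNAA and 0.642% held both. The Duxf3 window held TGATTNAA 140 bases before the RefSeq start and no TATAAA. That start lies upstream of the GENCODE M21 gene, which spans bases 58229979 to 58232675 of chromosome 10 on the minus strand, and which start the embryos used was not tested. The full Dux motif was in 0.0335% of all windows, and TGCACAC, letters of a motif described for Zscan4 proteins, in 4.4%, and neither was in a window of these 5 genes. The Zfp352 window, chosen for a closer look after its sequence was seen, was a run of short tandem repeats that carried TAATCC 9 times, the highest count in any window, while 7.06% of windows held it at all. These matches describe letters in the reference and not binding.

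Reads of these genes could be assigned with unequal certainty. Every stretch of 150 bases, the length of a sequenced read, of the longest transcripts of Zfp352, Tcstv1 and Tcstv3 was found in no other gene of GENCODE M21. The share of such stretches unique to the gene was 87.0% for Zscan4d and 79.9% for Duxf3, against 39.0% for Zscan4c and 13.8% for Zscan4f, whose transcripts were identical at 99.6% of 1806 aligned bases. The levels of the single Zscan4 genes are therefore uncertain, and how the authors' counting placed reads shared between them was not tested. Duxf3 shared stretches with AW822073 and Gm10807.

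In vivo, Duxf3 was a gene of the 2-cell stage. Its levels in the 3 in vivo 2-cell libraries were 11.4, 63.1 and 6.93 RPKM, from 574, 2365 and 309 reads. Over the 57 other libraries it reached 0.135 RPKM at most, and in the 27 embryo libraries from the 8-cell stage on it was listed at 0 in every library. In NTC 2-cell embryos Duxf3 had 2 reads in all, 1 each in replicates 1 and 2 (0.0314 and 0.0310 RPKM) and none in replicate 3. In NTM 2-cell embryos it had no read in any of the 3 libraries. No NT library therefore overlapped an in vivo library at this stage. Relative to depth, Duxf3 reads were 962-fold more frequent in vivo than in NTC embryos, with an exact 95% interval of 266 to 7950. Against NTM embryos the mean in vivo level was at least 302-fold higher, with 3 reads in the shallowest NTM library (0.0898 RPKM) as the floor. Without in vivo replicate 2 these values were 365-fold and at least 102-fold, and the lowest in vivo library alone was at least 77.2-fold above the floor. The interval treats reads pooled over the 3 libraries of a group as independent, but amplified reads without molecular identifiers are not independent molecules. The interval and the floors also leave out the spread between embryos, which was 6.93 to 63.1 RPKM in vivo. At the 1-cell stage Duxf3 had 1 read in vivo, 3 reads for NTC and 8 for NTM, each over 3 libraries.

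**Figure D1:**
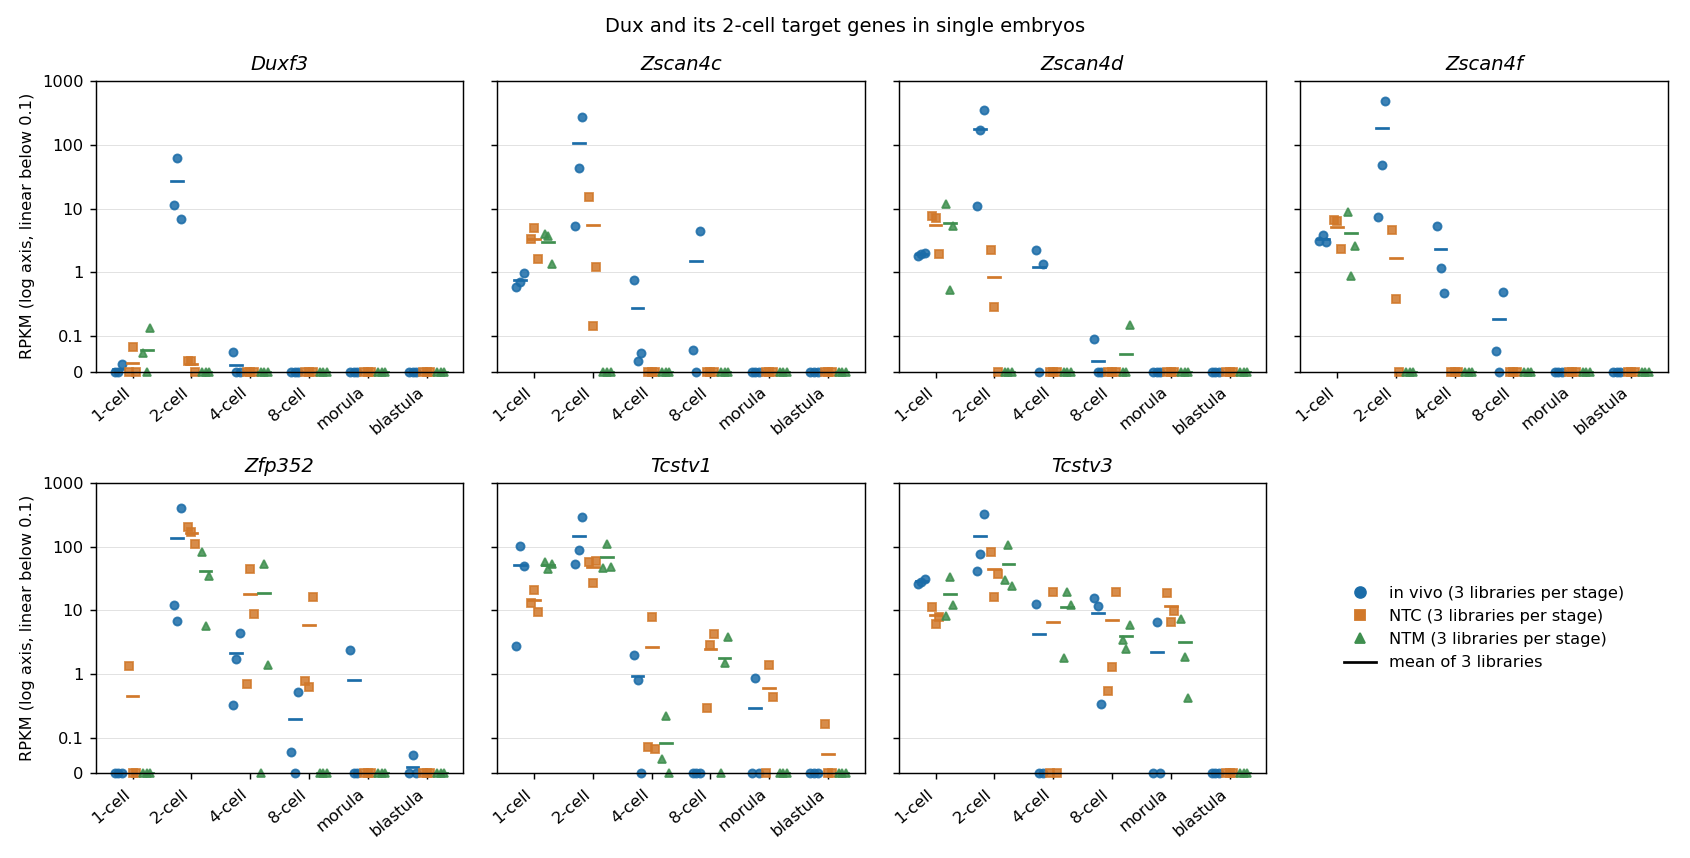
RPKM of Duxf3, Zscan4c, Zscan4d, Zscan4f, Zfp352, Tcstv1 and Tcstv3 (vertical axis, logarithmic above 0.1 and linear below) at the 6 stages (horizontal axis), with each of 3 libraries as a point, circles for in vivo, squares for NTC and triangles for NTM embryos, and a bar at the mean. Duxf3 stands above 1 RPKM in the 3 in vivo 2-cell libraries alone, the Zscan4 genes are at 0 in NTM 2-cell embryos, and Zfp352, Tcstv1 and Tcstv3 are present at the 2-cell stage in all 3 types.

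The Zscan4 genes, unlike Duxf3, were present at more than trace levels at the 1-cell stage in all 3 types. Zscan4d stood at 1.79, 1.95 and 2.02 RPKM in vivo, at 7.79, 7.06 and 1.97 in NTC and at 11.8, 0.531 and 5.28 in NTM 1-cell embryos. At the 2-cell stage it was at 11.1, 168 and 355 RPKM in vivo, at 2.29, 0.292 and 0 in NTC embryos, and at 0 in all 3 NTM libraries. No NT library reached the lowest in vivo library at the 2-cell stage, whereas at the 1-cell stage 4 of the 6 NT libraries were above every in vivo library.

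Zscan4f was at 3.15, 3.81 and 2.97 RPKM in vivo, 6.55, 6.38 and 2.37 in NTC and 8.81, 0.891 and 2.62 in NTM 1-cell embryos. At the 2-cell stage it was at 7.49, 48.2 and 493 RPKM in vivo, 4.63, 0.379 and 0 in NTC and 0 in all 3 NTM libraries. Again no NT library reached the lowest in vivo library. Zscan4c was at 0.583, 0.715 and 0.983 RPKM in vivo, below all 3 NTC libraries (3.35, 4.92 and 1.60) and all 3 NTM libraries (3.99, 3.68 and 1.34) at the 1-cell stage. Higher than in vivo without overlap at that stage were 24.2% of all genes in NTC and 14.5% in NTM embryos. At the 2-cell stage Zscan4c was at 5.33, 42.8 and 271 RPKM in vivo, at 15.1, 0.146 and 1.23 in NTC and at 0 in all 3 NTM libraries, so that NTC replicate 1 overlapped the in vivo range. Against a floor of 3 reads in the shallowest NTM library, the mean in vivo 2-cell level was at least 1008-fold higher for Zscan4c, 1688-fold for Zscan4d and 1835-fold for Zscan4f. Without in vivo replicate 3 these bounds were 228-fold, 849-fold and 279-fold, and for the lowest in vivo library alone 50.5-fold, 105-fold and 75.2-fold. Against the NTC mean the in vivo mean was 19.3-fold higher for Zscan4c, 207-fold for Zscan4d and 110-fold for Zscan4f. Without in vivo replicate 3 it was 4.37-fold, 104-fold and 16.7-fold higher, and without NTC replicate 1 it was 154-fold, 1222-fold and 966-fold, so the size of these ratios rests on single libraries.

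Zfp352 behaved differently. It was at 0 in all 3 in vivo and all 3 NTM 1-cell libraries, and at 1.35, 0 and 0 RPKM in NTC. At the 2-cell stage it reached 12.01, 6.93 and 395 RPKM in vivo, 205, 168 and 108 for NTC and 83.4, 5.62 and 34.4 for NTM. The in vivo range overlapped both NT ranges, and every NTM library was below every NTC library, as was the case for 9.22% of all genes. The mean level was 138 ± 223 RPKM (SD, n = 3) in vivo, 161 ± 48.6 for NTC and 41.1 ± 39.4 for NTM.

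Tcstv1 and Tcstv3 were present at the 1-cell stage in every type. Tcstv1 was at 2.81, 102 and 49.7 RPKM in vivo, 12.9, 20.97 and 9.33 in NTC and 57.1, 43.8 and 53.5 in NTM 1-cell embryos, and at 54.2, 89.4 and 293 in vivo, 56.9, 26.9 and 58.6 in NTC and 46.1, 109 and 47.6 in NTM 2-cell embryos. Tcstv3 was at 26.3, 27.7 and 31.3 RPKM in vivo, 11.4, 6.03 and 7.97 in NTC and 8.17, 33.2 and 12.2 in NTM 1-cell embryos, and at 41.9, 76.2 and 319 in vivo, 81.5, 16.4 and 37.8 in NTC and 29.5, 106 and 23.7 in NTM 2-cell embryos. In both genes the 2-cell ranges of the 3 types overlapped.

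Ordered by mean level over the 20 groups, the in vivo 2-cell group came first for all members but Zfp352, for which NTC 2-cell embryos came first and overlapped the in vivo group in second place. For Duxf3 the in vivo 2-cell libraries were clear of every other library. For Zscan4d the lowest in vivo 2-cell library (11.1 RPKM) lay below the highest NTM 1-cell library (11.8), and for Zscan4f likewise (7.49 against 8.81). These orders are a description.

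The 3 in vivo 2-cell libraries differed widely from each other. Replicate 2 had the most Duxf3, whereas replicate 3 had the least Duxf3 and the most of each of the 6 other members. Of 31 further genes of the 2-cell state in the table, 29 were above 0 in an in vivo 2-cell library, and 26 of these were highest in replicate 3, 3 in replicate 2 and 0 in replicate 1. At 1 RPKM or more stood 14, 21 and 27 of the 31 genes in the in vivo replicates in that order, 24, 23 and 18 in the NTC and 12, 5 and 6 in the NTM replicates. Their summed level was 184, 377 and 3945 RPKM in vivo, 491, 247 and 259 for NTC and 326, 32.5 and 62.7 for NTM. In vivo 1-cell libraries already summed to 51.2 to 128 RPKM. The sum includes Arg2 and Sp110, which were present at the 1-cell stage in all 3 types. They held 76.6 and 52.1 RPKM in in vivo 2-cell replicate 1 and 10.4 and 9.49 in NTM 2-cell replicate 2. Some listed genes were higher in vivo at the 4-cell stage, such as Pramel6 (159 to 206 RPKM, against at most 0.290), and others, such as Gm5662, were lower. The share of mitochondrial reads in the 3 in vivo 2-cell libraries was 7.32, 11.1 and 12.7%, and the part of this share in the differences was not tested.

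**Figure D2:**
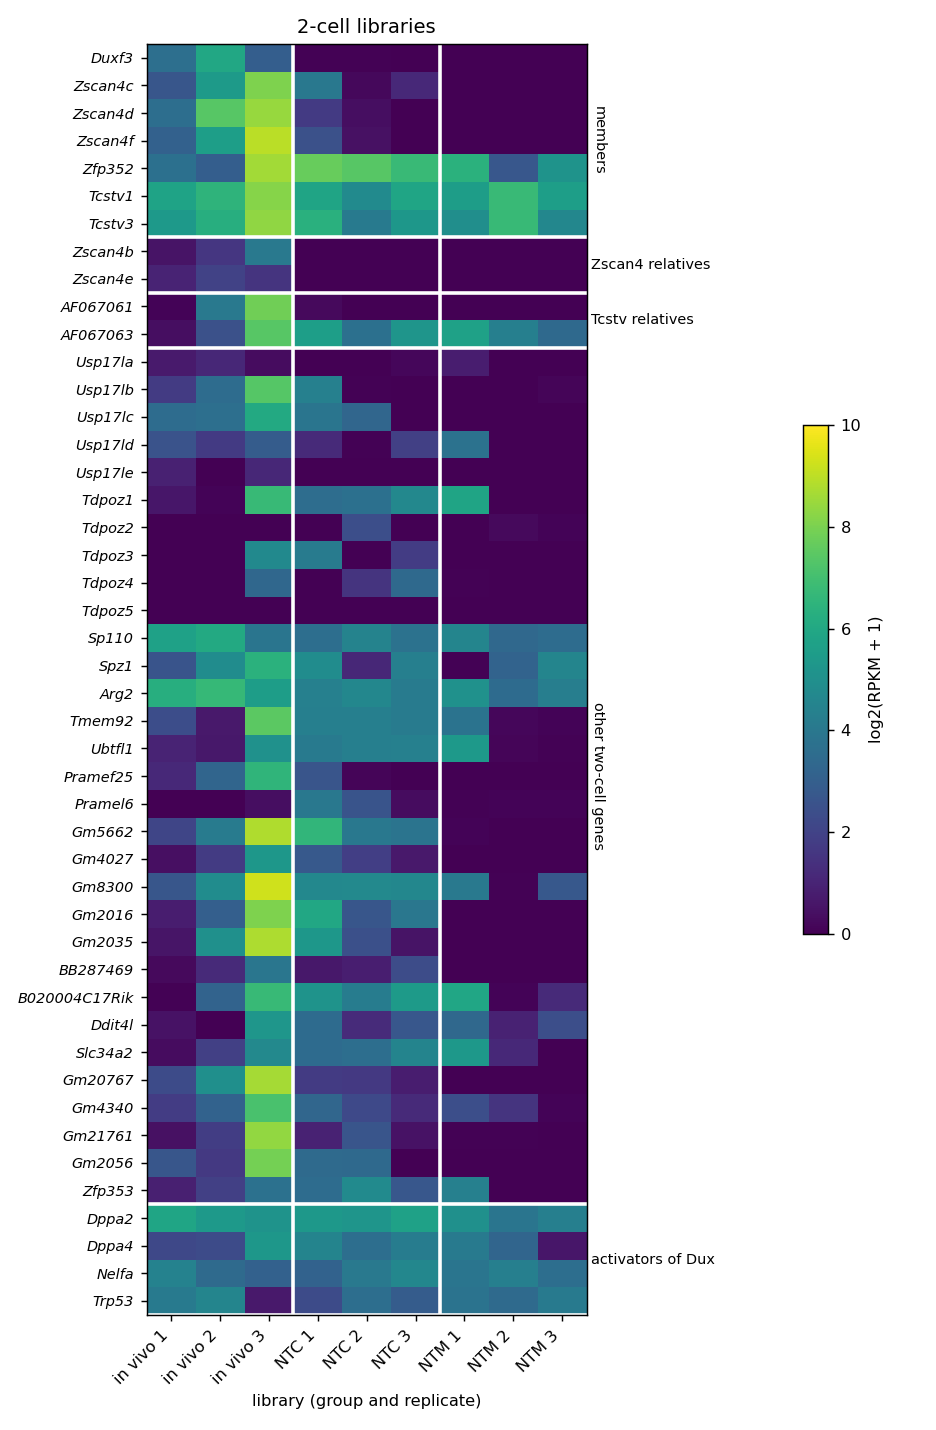
Levels of the 7 members, their relatives, 31 other genes of the 2-cell state and 4 activators of Dux (rows) in the 9 libraries of 2-cell embryos (columns), coloured by log2(RPKM + 1) from 0 to 10. The brightest column is in vivo replicate 3, the Duxf3 and Zscan4 rows are at 0 in the NTM columns, and NTM replicates 2 and 3 are darker than NTM replicate 1 for genes such as Tdpoz1 and Ubtfl1.

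The first comparison asked which members changed from the 1-cell to the 2-cell stage. Fits were made with limma on log2(RPKM + 1) for genes with a mean of 0.5 RPKM or more in the libraries compared, and a gene was called at a Benjamini-Hochberg adjusted p under 0.05 and a change of at least 1. Fold changes on this scale understate the change of genes with low values. In vivo, 6 of 7 members were higher in every 2-cell than in every 1-cell library, all but Tcstv1, where 7.08% of all genes were. The changes on the log2 scale were 4.20 ± 0.89 (SE) for Duxf3, 4.59 ± 1.12 for Zscan4c, 4.95 ± 1.04 for Zscan4d, 3.78 ± 1.15 for Zscan4f and 5.11 ± 1.25 for Zfp352. None was called, with limma adjusted p-values from 0.249 to 0.820 over the 7 members, and 0 of the 10854 genes tested were called, against a share of 5.67% at an unadjusted p under 0.05, which 6 members passed. Without in vivo 2-cell replicate 1, which had the lowest Zscan4 levels, Zscan4d was called (change 6.39, limma adjusted p = 0.0152).

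In NTC embryos the same step raised Zfp352 by 6.88 ± 0.43 (limma adjusted p = 0.000118), Tcstv1 by 1.65 ± 0.40 (0.0286) and Tcstv3 by 2.05 ± 0.53 (0.0357). These were 3 of the 6 members tested, where 4.53% of all genes rose. The Tcstv1 and Tcstv3 calls were lost without any single NTC 1-cell library and without NTC 2-cell replicate 1 or 3, with Zfp352 alone left in 4 of those 5 fits. In the fifth, without NTC 2-cell replicate 1, Zscan4d (-2.39, limma adjusted p = 0.0316) and Zscan4f (-2.29, 0.0246) fell as well. Zscan4d had a change of -1.88 ± 0.63 and Zscan4f of -1.53 ± 0.70, neither called (limma adjusted p = 0.0830 and 0.184), and Zscan4c of -0.23 ± 0.90. Duxf3 was below the level needed for a test.

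In NTM embryos Zfp352 rose by 4.76 ± 0.88 (limma adjusted p = 0.0131), which made 1 of 6 members, where 2.72% of all genes rose. That call was lost without any single NTM 1-cell library (limma adjusted p 0.0678 to 0.0797). The Zscan4 genes were lower in every 2-cell than in every 1-cell library, by -1.93 ± 0.56, -2.31 ± 0.80 and -2.02 ± 0.69 for Zscan4c, Zscan4d and Zscan4f, and none was called. Of all genes, 22.7% were lower without overlap at this step. Tcstv1 (0.27 ± 0.41) and Tcstv3 (1.43 ± 0.68) were not called.

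The difference between these steps was tested directly as the change in NT minus the change in vivo. For NTC the Zscan4d difference was -6.82 ± 1.38 and the Duxf3 difference -4.20 ± 0.90, and for NTM they were -7.26 ± 1.46 and -4.28 ± 0.97. No member was called in either test, with limma adjusted p-values of 0.107 and 0.145 for NTC and 0.0604 and 0.0721 for NTM, and 4 members each passed an unadjusted p under 0.05. Among all genes 0.0256% were called for NTC and 0.204% for NTM, and 11.4% and 12.8% passed an unadjusted p under 0.05. Zfp352 differed by 1.77 ± 1.51 for NTC and by -0.35 ± 1.69 for NTM. Without in vivo 2-cell replicate 1, Zscan4d was called for NTC (limma adjusted p = 0.00451) and Zscan4c, Zscan4d and Zscan4f for NTM (0.00636, 0.00509 and 0.0239). Without in vivo 2-cell replicate 3, the one with the least Duxf3, Duxf3 was called for NTC (0.0250) and NTM (0.0222), Zfp352 for NTC (0.0478, with a difference of 3.53) and Zscan4c for NTM (0.0393). The NTC and NTM tests share the in vivo libraries.

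**Figure D3:**
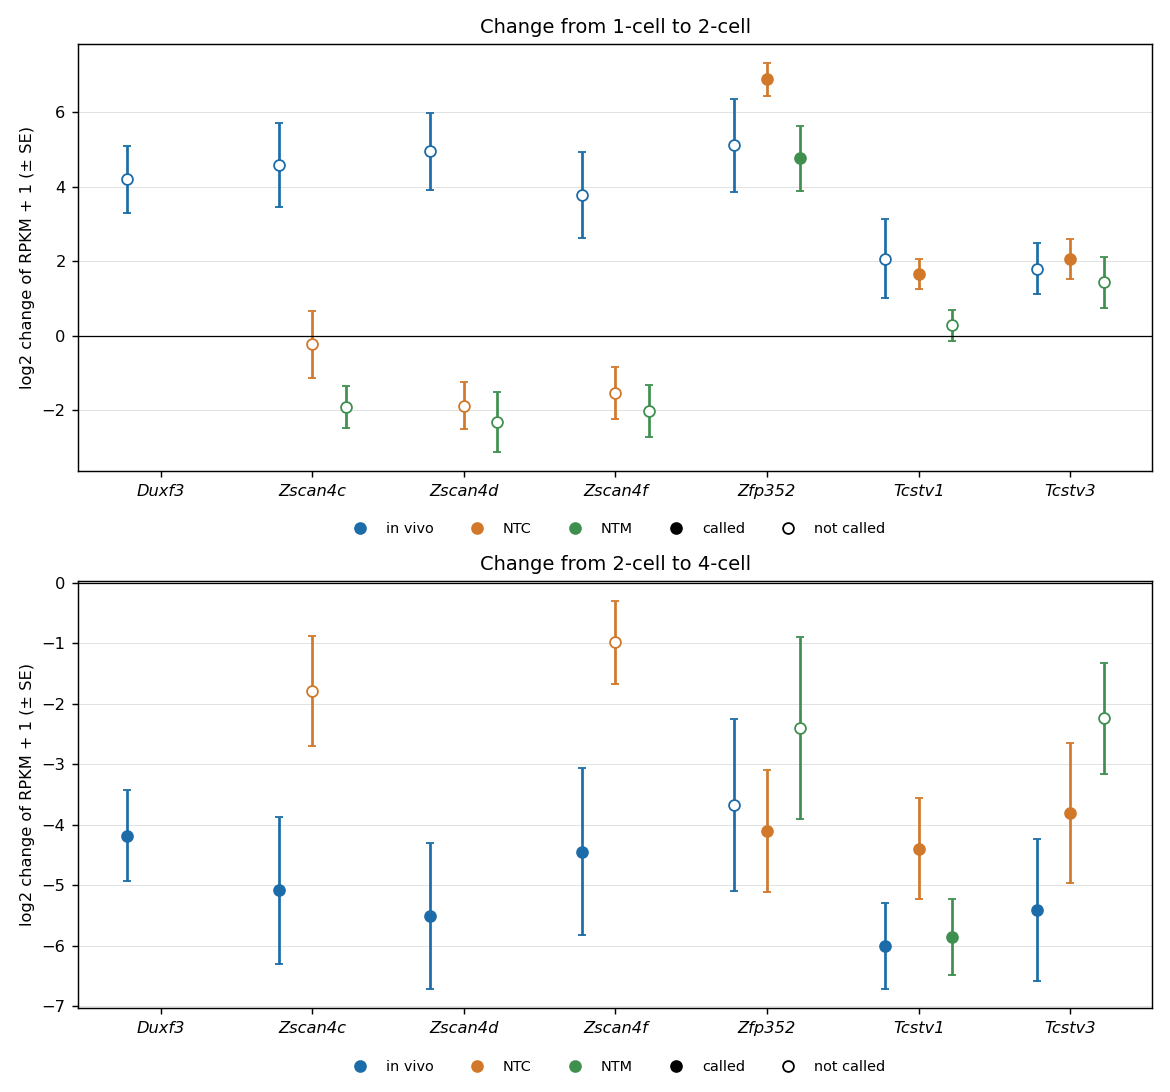
Change in log2(RPKM + 1) with its SE for each member (horizontal axis) from the 1-cell to the 2-cell stage (upper panel) and from the 2-cell to the 4-cell stage (lower panel) in in vivo, NTC and NTM embryos, with filled points for calls. From 1-cell to 2-cell, the Zscan4 changes lie above 0 in vivo and below 0 in both NT types, while the Zfp352 changes lie above 0 in all 3. Members below the level needed for a test have no point.

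The second comparison set NT against in vivo embryos at the 2-cell stage. With both NT types pooled, 3 of 7 members were lower and called, where 0.178% of all genes were. Zscan4d differed by -6.14 ± 0.91 (limma adjusted p = 0.0123), Zscan4f by -5.39 ± 1.02 (0.0435) and Duxf3 by -4.19 ± 0.69 (0.0196). The same 3 genes were lower in all 6 NT libraries than in each in vivo library, as were 3.55% of all genes. Zscan4c differed by -4.51 ± 1.05 without a call (limma adjusted p = 0.0964). Zfp352 differed by 0.92 ± 1.04, Tcstv1 by -1.08 ± 0.54 and Tcstv3 by -1.33 ± 0.69, none of them called. Without in vivo 2-cell replicate 2, the library with the most Duxf3, no member was called (limma adjusted p = 0.0838 for Duxf3, 0.104 for Zscan4d and 0.199 for Zscan4f), and without NTC replicate 1, 2 or 3 or NTM replicate 2, Zscan4d alone stayed called. The Zscan4f call was lost in 8 of the 9 fits that left out 1 library, all but the one without in vivo replicate 1 (limma adjusted p 0.0705 to 0.199), and also with median-ratio scaling (0.0543) and the replicate block (0.0773). Without in vivo replicate 1, Zscan4c was called too (-5.87, limma adjusted p = 0.0279). With no filter on low values, again none was called (0.129, 0.123 and 0.244 in the same order).

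By themselves, NTM embryos differed from in vivo embryos with 1 call, where 0.0793% of all genes were lower. Zscan4d differed by -6.49 ± 1.06 (limma adjusted p = 0.0354), and this call was lost without any one library but in vivo replicate 1 (limma adjusted p 0.0909 to 0.526). Without that replicate Zscan4c (-6.77, 0.0269) and Zscan4f (-7.28, 0.0252) were called as well. Duxf3 (-4.21 ± 0.93), Zscan4c (-5.40 ± 1.13) and Zscan4f (-5.88 ± 1.17) were lower in every NTM library, uncalled, where 10.6% of all genes were lower without overlap. NTC embryos differed from in vivo embryos with 0 calls among members, where 0.152% of all genes were called, and 4 members passed an unadjusted p under 0.05 against 9.28% of all genes. The NTC differences were -4.18 ± 0.84 for Duxf3, -5.80 ± 1.08 for Zscan4d, -4.90 ± 1.24 for Zscan4f and -3.61 ± 1.28 for Zscan4c, the first 3 without overlap, where 6.82% of all genes were lower without overlap. Without in vivo replicate 1 Zscan4d was called against NTC (-7.24, limma adjusted p = 0.00707), and without in vivo replicate 3 Duxf3 (-4.79, 0.0289) and, as higher in NTC, Zfp352 (3.94, 0.00512). The same in vivo libraries entered both comparisons, which are therefore not independent. Between NTM and NTC 2-cell embryos 0 members and 0 of 11609 genes were called, with 6.65% of genes at an unadjusted p under 0.05. Of the members only Zfp352 passed that mark (-2.53 ± 0.74, limma adjusted p = 0.524). Both Zfp352 and Zscan4c were lower in every NTM than in every NTC library, as were 9.22% of all genes.

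**Figure D4:**
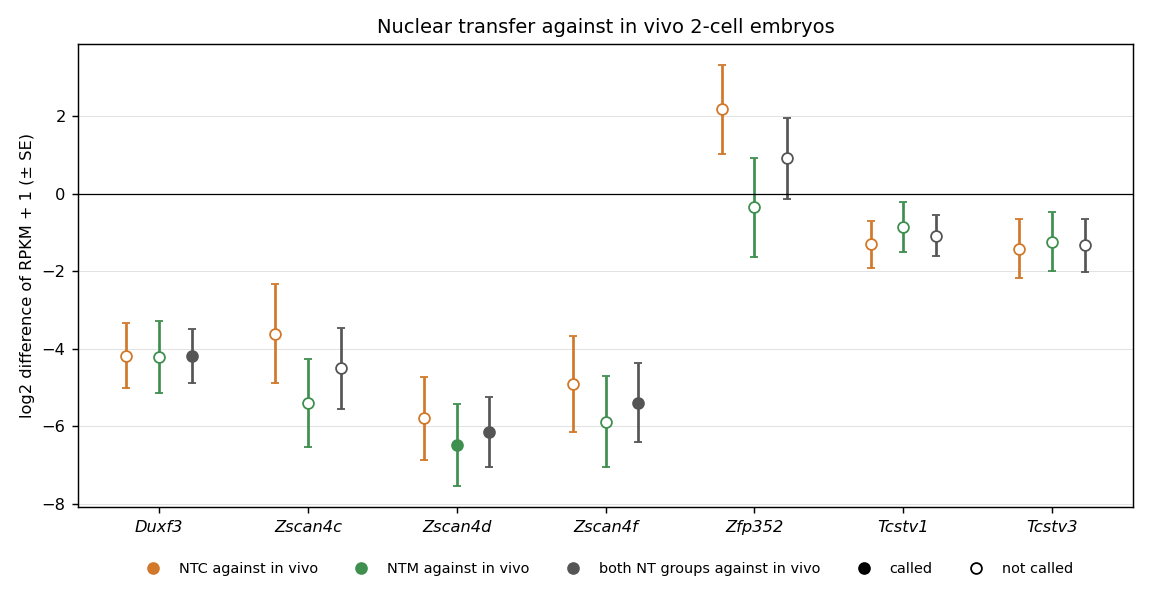
Difference in log2(RPKM + 1) with its SE between NT and in vivo 2-cell embryos for each member (horizontal axis), for NTC, for NTM and for both NT types together, with filled points for calls. Duxf3 and the Zscan4 genes lie between -3.61 and -6.49, and Zfp352 lies between -0.35 and 2.18.

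The types were also compared at the 1-cell stage. No member was called between in vivo embryos and NTC, NTM or both together, where 1.16%, 1.28% and 3.82% of all genes were called and 23.2%, 14.8% and 23.2% passed an unadjusted p under 0.05, as did 2, 0 and 2 members. Tcstv3 was lower in every NTC than in every in vivo library (-1.67 ± 0.36, limma adjusted p = 0.0676), as were 9.29% of all genes. Zscan4c was higher in every NT than in every in vivo library (1.16 ± 0.41 for both types together, limma adjusted p = 0.128), as were 7.5% of all genes. In vivo replicate 1 had 2.81 RPKM of Tcstv1 against 102 and 49.7 in the others. Without it Tcstv1 was called lower in NTC (-2.30, limma adjusted p = 0.00691) and in both NT types together (-1.39, 0.0280, against 0.03 with it), and Tcstv3 in NTC (-1.72, 0.00827). NTM exceeded NTC embryos in Tcstv1 by 1.83 ± 0.30 (limma adjusted p = 0.00362), which made 1 of 5 members tested, where 5.64% of all genes were higher.

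From the 2-cell to the 4-cell stage the members fell in vivo. The call was made for 6 of 7, all but Zfp352, where 20.8% of all genes fell. The changes were -4.18 ± 0.75 for Duxf3, -5.09 ± 1.22 for Zscan4c, -5.51 ± 1.21 for Zscan4d, -4.44 ± 1.38 for Zscan4f, -6.01 ± 0.71 for Tcstv1 and -5.41 ± 1.18 for Tcstv3, with limma adjusted p-values from 0.000394 to 0.0301. Zfp352 changed by -3.68 ± 1.43 (limma adjusted p = 0.0646) and was called without in vivo 2-cell replicate 2 or 3. The Zscan4f call was lost without in vivo 2-cell replicate 2 or any single in vivo 4-cell library, and the Zscan4c call without in vivo 4-cell replicate 2 or 3. The in vivo 4-cell libraries kept 0.479 to 5.26 RPKM of Zscan4f, 0 to 2.29 of Zscan4d and 0.0292 to 0.761 of Zscan4c, whereas all 6 NT 4-cell libraries were at 0 for all 3 genes. With both NT types together Zscan4f was lower than in vivo by -1.44 ± 0.46 (limma adjusted p = 0.0391), the only call among 4 members tested at the 4-cell stage, where 21.6% of all genes were lower. It was not called in 8 of the 9 fits that left out 1 library (limma adjusted p 0.0560 to 0.0671 in 7 of them, and below the level needed for a test without in vivo 4-cell replicate 1). Mitochondrial reads took 5.68 to 8.87% of the in vivo, 31.6 to 34.7% of the NTC and 29.6 to 40.4% of the NTM 4-cell libraries, and with values rescaled to nuclear genes Zscan4f was not called. With NTC or NTM alone 0 of 5 members were called, where 27.8% and 21.1% of all genes were called and 39.9% and 36.1% passed an unadjusted p under 0.05, as did Zscan4f each time. Without NTC 4-cell replicate 1, Zfp352 was called higher in NTC (2.96, limma adjusted p = 0.0311).

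As a direct test, the change over this step in NT minus that in vivo was called as positive for 2 of 7 members in NTC, where 2.38% of all genes were, and for 3 of 7 in NTM embryos, where 1.86% were. A positive value means that NT embryos fell less. Duxf3 (4.15 for NTC, limma adjusted p = 0.00694, and 4.18 for NTM, 0.0110) and Zscan4d (4.81, 0.0367, and 5.51, 0.0242) were called in both, and Zscan4c in NTM embryos (5.09, 0.0357). These genes were at 0 in all NTM 2-cell and 4-cell libraries, so the NTM values are the in vivo changes with the sign turned. The NTC value of Duxf3 is nearly so too, with 2 reads in all at the 2-cell stage and none at the 4-cell stage. Such values show that NT embryos had little or nothing to fall from, and add nothing to the difference at the 2-cell stage. The Zscan4d call for NTC and the Zscan4c call for NTM were each lost without any of 10 of the 12 libraries (limma adjusted p 0.0567 to 0.102 and 0.0571 to 0.0884). The Zscan4d call for NTM was lost without in vivo 2-cell replicate 2 or in vivo 4-cell replicate 2 or 3 (0.0517 to 0.0719).

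In NTC embryos 3 of 5 members tested fell from the 2-cell to the 4-cell stage, where 20.1% of all genes did. These were Zfp352 (-4.11 ± 1.01, limma adjusted p = 0.0135), Tcstv1 (-4.40 ± 0.84, 0.00429) and Tcstv3 (-3.81 ± 1.15, 0.0315), and without NTC 2-cell replicate 1 or 2 Tcstv1 alone was called. The Tcstv3 call was also lost without NTC 2-cell replicate 3 or NTC 4-cell replicate 1 or 3. In NTM embryos Tcstv1 fell (-5.86 ± 0.63, limma adjusted p = 0.000666), 1 of 3 tested, where 14.3% of all genes fell, and without NTM 4-cell replicate 2 Zfp352 was called too (-4.12, 0.0482). NT embryos were uneven after this step. Zfp352 was at 0.691, 44.3 and 8.66 RPKM in NTC and at 0, 54.1 and 1.41 in NTM 4-cell embryos, against 0.334, 1.71 and 4.41 in vivo. NTC replicates 2 and 3 and NTM replicate 2 thus stood above every in vivo library, and the other 3 NT libraries lay within or below the in vivo range. NTC 4-cell replicate 2 also had the highest Tcstv1 of the 4-cell libraries, at 7.97 RPKM. Between NTM and NTC 4-cell embryos 0 of 3 members and 0 of 10233 genes were called, with 5.88% of genes and 0 members under 0.05 before adjustment.

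After the 4-cell stage little of the set was left apart from Tcstv3. That gene was at 15.6, 11.6 and 0.338 RPKM in in vivo 8-cell embryos, against 12.7, 0 and 0 in in vivo 4-cell embryos. It was at 1 RPKM or more in 13 embryo libraries from the 8-cell stage on. Of the 27 embryo libraries from the 8-cell stage on, Zscan4c was above 0 in 2, Zscan4d in 2, Zscan4f in 2, Zfp352 in 7, Tcstv1 in 9 and Tcstv3 in 16. The highest values were 4.42 RPKM of Zscan4c in in vivo 8-cell replicate 3, and 16.4 of Zfp352, 4.21 of Tcstv1 and 19.2 of Tcstv3, all in NTC 8-cell replicate 3. Tcstv3 was at 18.9, 6.50 and 9.70 RPKM in NTC morulae and at 0 in all 9 blastula libraries. In blastulae the members' only reads were 3 of Tcstv1 in NTC replicate 1 (0.163 RPKM) and 1 of Zfp352 in in vivo replicate 2 (0.0513 RPKM). In NTC embryos Tcstv3 fell from morula to blastula by -3.55 ± 0.46 (limma adjusted p = 0.00595), the only member tested there, where 2.62% of all genes fell. In the other 16 steps and comparisons between types after the 4-cell stage that tested a member, limma called 0 of 37 member tests, and 8 passed an unadjusted p under 0.05. In vivo from the 4-cell to the 8-cell stage, leaving out 1 library brought 1 call in 3 of the 6 fits. Among these calls were Zfp352 (-1.70, limma adjusted p = 0.0303) without in vivo 4-cell replicate 1 and Zscan4d (-1.44, 0.0223) without replicate 2. Of all genes, 43.7, 0.0564 and 0.363% were called from the 4-cell to the 8-cell stage (in vivo, NTC and NTM in that order), 0.0116, 0 and 0% from the 8-cell stage to the morula, and 0.801 (in vivo) and 4.22% (NTM) from morula to blastula. At the 8-cell stage it was 1.46% for NTC, 2.02% for NTM and 3.61% for both NT types against in vivo and 0.0507% for NTM against NTC, and in morulae 0.0321, 0.168, 0.693 and 0% in the same order. Between 9.48 and 53.4% of all genes passed an unadjusted p under 0.05 in these comparisons.

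Of relatives of the members, 2 of 6 Zscan4, 2 of 12 Tcstv and 2 of 6 Dux genes listed were in the table. Zscan4b (0.429, 2.01 and 15.4 RPKM) and Zscan4e (0.991, 2.94 and 1.87) were present in the 3 in vivo 2-cell libraries and at 0 in all 6 NT libraries. Of the Tcstv relatives, AF067061 was at 0.0765, 15.5 and 228 RPKM in vivo and at 0.181 at most in NT embryos, whereas AF067063 was at 0.303, 4.55 and 166 in vivo, 47.3, 11.8 and 35.9 in NTC and 51.5, 19.0 and 9.76 in NTM 2-cell embryos. AF067063 rose from the 1-cell to the 2-cell stage in NTC (3.84, limma adjusted p = 0.00263) and in NTM embryos (2.89, 0.0367). The Dux relatives Duxbl1 and Duxbl3 did not exceed 0.227 RPKM in any 2-cell library.

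The wider list of 33 genes of the 2-cell state, 31 of them in the table, holds Usp17l deubiquitinases, Tdpoz genes and Eif1a-like genes. Its median change between the 1-cell and 2-cell stages was 2.69 in vivo over 26 tested genes, against 0.02 over all genes. Limma called 0 of them, while 16 passed an unadjusted p under 0.05, as did 5.67% of all genes. In NTC embryos the median was 2.06 over 28, against -0.17, and 11 rose while 2, Sp110 and Arg2, fell, where 4.53% of all genes rose and 8.95% fell. The 11 were led by Gm5662 (4.75), B020004C17Rik (4.68), Gm8300 (4.27) and Ubtfl1 (4.24). In vivo, Ubtfl1 was higher in every 4-cell library (54.2 to 80.4 RPKM) than in any 2-cell library (0.574 to 32.6). Gm5662 and Gm8300 were lower in every 4-cell library, and B020004C17Rik overlapped between these stages. The list is therefore not confined to genes highest at the 2-cell stage. In NTM embryos the median was 1.66 over the 14 genes with enough signal to test, against -0.22. Most listed genes were at or near 0 at the 1-cell stage and passed the level filter through their 2-cell values. Positive medians and rises over this step were therefore largely fixed in advance, and the medians of the 3 types cover different genes. Of these 14 genes 0 rose and 1, Arg2, fell, where 2.72% of all genes rose and 6.68% fell. That unadjusted mark was passed by 4 of them and by 25.5% of all genes. At the 2-cell stage the median difference from in vivo was -0.61 for NTC (all genes 0.11) and -2.08 for NTM embryos (all genes -0.15). Limma called 0 genes of the list in either, with 3 of 28 and 13 of 26 at an unadjusted p under 0.05, where 9.28% and 9.41% of all genes were. Of the 31 genes, 11 were at 0 in all 3 NTM 2-cell libraries, 2 in all 3 NTC and 2 in all 3 in vivo libraries. NTM replicate 1 stood apart from NTM replicates 2 and 3, with 56.5 RPKM of Tdpoz1 against 0 and 0, 41.2 of Ubtfl1 against 0.105 and 0.0293, and 58.8 of B020004C17Rik against 0.0609 and 1.29.

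Genes described as activators of Dux were present in NT 2-cell embryos. Dppa2 was at 57.2, 41.6 and 34.3 RPKM in vivo, 39.0, 35.9 and 52.4 in NTC and 31.4, 13.9 and 18.7 in NTM 2-cell embryos, and its partner Dppa4 at 3.54, 3.85 and 38.5, at 22.0, 11.2 and 17.2 and at 16.3, 8.67 and 0.526. Of Dppa2, Dppa4, Nelfa and Trp53, limma called 0 for NTC or NTM against in vivo 2-cell embryos, with 0 at an unadjusted p under 0.05. Of all genes, only 0.152% were called for NTC and 0.141% for NTM, so the lack of a call does not show equal levels. Dppa2 was lower in every NTM than in every in vivo library, as were 10.6% of all genes. For NTM the other activators overlapped the in vivo range, and for NTC all 4 did. Of 23 genes described as repressors of Dux or of the 2-cell state, 21 were tested and 0 called, with 1 for NTC and 3 for NTM at an unadjusted p under 0.05. The share of all genes at that mark was 9.28% for NTC and 9.41% for NTM. From the 1-cell to the 2-cell stage Dppa4 rose by 2.17 (limma adjusted p = 0.00725) and Dppa2 fell by 1.08 (0.0193) in NTC embryos. For NTM, limma called 0 of the 4 activators, and 1 had p under 0.05 before adjustment, as did 25.5% of all genes. Over the same step 0 of the 21 repressors rose in NTC and 4 fell, where 4.53% of all genes rose and 8.95% fell. In NTM embryos 2 rose and 2 fell, where 2.72% of all genes rose and 6.68% fell. At the 4-cell stage, after Duxf3 had gone, all 4 activators were lower in NT than in in vivo embryos, with differences of -2.64 for Dppa2 (limma adjusted p = 0.000337), -1.42 for Dppa4 (0.0119), -1.87 for Nelfa (0.0430) and -1.43 for Trp53 (0.0375), where the median over all genes was -0.41 and 21.6% of all genes were lower. These are the libraries in which mitochondrial reads took 5.68 to 8.87% in vivo and 29.6 to 40.4% in NT embryos, and the part of this share in the differences was not tested.

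The genes whose group means followed the mean of the 7 members most closely were taken by Pearson correlation over the 18 embryo groups, from 10931 genes with a mean of at least 5 RPKM in some group. The first 3 were Tmem132c (r = 0.956), Gm13083 (0.946) and Gm428 (0.943), followed by Chp2, Gm6821, Gpx6, Gm8013, Gm42880, Cplx1 and Olfr1340 (0.917). In contrast to Duxf3, Tmem132c reached up to 5.19 RPKM and Gm13083 up to 7.46 RPKM in NT 2-cell embryos. With Spearman correlation 0 of these 10 genes were among the first 10, and with a pseudocount of 0.1 it was 5. Over the 54 embryo libraries the log2(RPKM + 1) levels of Zscan4d and Zscan4f correlated at r = 0.971, Duxf3 and Zscan4d at 0.781 and Duxf3 and Zfp352 at 0.288, as a description across libraries that share stages. For Duxf3 alone, 26 genes reached r of at least 0.99, and the first 5, Gm22723, Gm12733, Mir684-2, Slc17a1 and Cldn34c3, were above 0 in only 1 or 2 of the 3 in vivo 2-cell libraries and at 0 in all NT 2-cell libraries, so a likeness to Duxf3 over group means can rest on a single library.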

How the data were processed

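Single-embryo and donor-cell RNA was sequenced as paired 150-base reads after 18 to 20 cycles of amplification without molecular identifiers, and nothing in the sources used here marks strand. Per the study's methods the authors removed redundant reads, mapped with TopHat and Bowtie2 to a UCSC mouse reference and counted with HTSeq. The submitters' processing notes name build mm8 and Bowtie 0.12.2, which differ from this. The values the authors deposited are labelled RPKM per gene, where the methods speak of FPKM. Counting of reads shared by near-identical genes can lower or mix their levels, which bears on the Zscan4 genes. Gene positions are from GENCODE M21 (GRCm38) and were used for names, lengths and sequence only.

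Whole reads were recovered from the steps of low values: of 26176 genes with low values 20390 gave whole reads at their GENCODE length within 0.02 of a read, and for Zscan4c, Zscan4d, Zscan4f and Tcstv3 the length came from their own steps. Depth here is the total of reads on genes per library. Replicates are separate embryos, and no 2 libraries were identical. Of donor cells it is not stated that replicates are separate cultures, so their spread may be technical.

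The tests were limma 3.58.1 in R 4.3.3 (linear fit, empirical Bayes with trend) on log2(RPKM + 1), over genes whose mean reached 0.5 RPKM, with Benjamini-Hochberg adjustment over all genes tested, in 15 stage steps, 24 comparisons between types and 4 tests of a difference between steps. A call needs an adjusted p under 0.05 and a log2 change of at least 1. Only the libraries compared entered a fit. The script was tested on simulated data. Alternatives were a pseudocount of 0.1, no filter, median-ratio scaling, rescaling to nuclear genes, a replicate block, all 20 groups in 1 fit, calls by adjusted p alone, and leaving out each library. Named genes are the 7 members, up to 4 called genes per list and comparison (relatives, 2-cell genes, regulators) by size of change, the 10 genes most like the members and the 5 most like Duxf3; list genes named beyond this were chosen after their values were seen. The members and lists were chosen with earlier results of these data known, so no list's direction is independent evidence. Replicate numbers were not taken to pair embryos, since in 0 of 33 comparisons of 2 groups did every same-numbered pair deviate together (correlation over 0.1). Promoter windows for Tcstv1 and Tcstv3 were not used here.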

Additional observations from a re-analysis of the deposited data

Results flagged for a closer look

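The fall from the 2-cell to the 4-cell stage differed between types for 3 members, by a direct limma test of the change in NT minus the change in vivo, where a positive value means that NT embryos fell less. For NTC the difference was 4.15 for Duxf3 (limma adjusted p = 0.00694) and 4.81 for Zscan4d (0.0367), 2 of 7 members, where 2.38% of all genes had a positive call. For NTM it was 4.18 for Duxf3 (0.0110), 5.09 for Zscan4c (0.0357) and 5.51 for Zscan4d (0.0242), 3 of 7, where 1.86% did. All 5 differences share the in vivo libraries. In NTM embryos these 3 genes were at 0 in all 2-cell and all 4-cell libraries, so each value is the in vivo change with its sign turned. The NTC value of Duxf3 is nearly so too, with 2 reads in all at the 2-cell stage and none at the 4-cell stage. Such values show that NT embryos had little or nothing to fall from, and add nothing to the difference at the 2-cell stage. The Zscan4d difference for NTC was no longer called without any of 10 of the 12 libraries (adjusted p 0.0567 to 0.102), and the Zscan4c difference for NTM without any of 10 of the 12 (0.0571 to 0.0884). The Zscan4d difference for NTM was not called without in vivo 2-cell replicate 2 or in vivo 4-cell replicate 2 or 3 (0.0517 to 0.0719).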

How the results depend on the processing

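Counts of members called, without a fitted block unless said, changed with several settings. They take rises and falls together and are given without the share of all genes called under the same setting. They therefore describe how stable the counts were and are no result about the members. In the fit over all 20 groups the spread of a gene is taken over every group, and Duxf3 was at or near 0 in most of them. With 1 fit over all 20 groups the count was 5 for in vivo 1-cell to 2-cell (0 in the separate fit), 4 for NTM 1-cell to 2-cell, 2 for NTM 2-cell to 4-cell, 0 for NTM against NTC at the 1-cell stage, 4 for NTC and 4 for NTM against in vivo at the 2-cell stage, 4 and 4 for the differences between types over the step from 1-cell to 2-cell (NTC, NTM) and 4 for that of NTC from 2-cell to 4-cell. With a pseudocount of 0.1 it was 2 for NTM 1-cell to 2-cell, 2 for NTM against in vivo at the 2-cell stage, 1 for NTC and 1 for NTM at the 4-cell stage, and 2 (NTM, 1-cell to 2-cell) and 1 (NTC, 2-cell to 4-cell) for the differences between types. With no filter it was 1 for NTC and 0 for NTM 1-cell to 2-cell, 0 for NTM and 0 for both NT types against in vivo at the 2-cell stage, 0 for both at the 4-cell stage, and 1 (NTC) and 1 (NTM) for the differences over 2-cell to 4-cell. Median-ratio scaling gave 0 for NTM at the 2-cell stage and 0 for both types at the 4-cell stage, where rescaling to nuclear genes also gave 0. The replicate block gave 3 for in vivo 1-cell to 2-cell, 1 for NTC and 3 for NTM against in vivo at the 2-cell stage, 0 for both types at the 4-cell stage and 1 for the NTC difference over 2-cell to 4-cell, and of single members it turned 7 into calls and ended 3, while 153 kept their side of the threshold. In 0 of 33 comparisons did the numbers pair the embryos, so the block is no test of pairing. The causes of these changes were not tested.

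The counts that follow also stand without the share of all genes called in the same fit. Leaving out 1 library moved the count over 0 to 1 for in vivo 1-cell to 2-cell, 0 to 1 for in vivo 4-cell to 8-cell, 1 to 3 for NTC 1-cell to 2-cell, 1 to 3 for NTC 2-cell to 4-cell, 0 to 1 for NTM 1-cell to 2-cell and 1 to 2 for NTM 2-cell to 4-cell. Against in vivo it moved over 0 to 2 for NTC and 0 to 1 for both types at the 1-cell stage, 0 to 2 for NTC, 0 to 3 for NTM and 0 to 4 for both types at the 2-cell stage, and 0 to 1 for NTC and 0 to 1 for both types at the 4-cell stage. For the differences between types it moved over 0 to 2 (NTC) and 0 to 3 (NTM) from 1-cell to 2-cell, and 1 to 4 (NTC) and 1 to 4 (NTM) from 2-cell to 4-cell. Of 1174 values of single members without a library, 1 reversed, Tcstv1 in both NT types against in vivo at the 1-cell stage, at -1.39 without in vivo 1-cell replicate 1 (limma adjusted p = 0.0280), where the 9 fits spanned -1.39 to 0.99. Under the other settings 0 of 1141 values of single members reversed.

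Rescaling to nuclear genes moved the mean level of Zscan4d in vivo at the 1-cell stage to 2.09 RPKM, of Zfp352 in in vivo morulae to 2.23 and of Tcstv3 in NTM 8-cell embryos to 6.77. The mean number of members per library at or above 1 RPKM moved with the limit. At 0.1 RPKM it was 5 in in vivo 1-cell and 4 in in vivo 4-cell embryos. At 10 RPKM it was 1.67, 5.67 and 0.333 in in vivo 1-cell, 2-cell and 4-cell embryos, 1 in NTC 1-cell embryos, and 2, 2.67 and 1 in NTM 1-cell, 2-cell and 4-cell embryos. Of the 10 genes most like the members, 0 stayed under Spearman correlation and 5 with a pseudocount of 0.1. A gene at 0 in the shallowest 2-cell library, of 5294167 reads, could hold up to 3 reads by counting error, or 0.210 RPKM of Duxf3.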

Other observations

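A rule set after the values were seen asked which genes behaved like Duxf3 at the 2-cell stage, at 1 RPKM or more in all 3 in vivo libraries and under 0.1 RPKM in all 6 NT libraries. Of 5360 genes on in vivo by this rule, 12 (0.224%) were off in NT embryos. Duxf3 had the highest mean of the 12, at 27.2 RPKM, and was the only member among them. Of the others, 4 were Obox4 pseudogenes, Obox4-ps28, Obox4-ps13, Obox4-ps27 and Obox4-ps12. Another, Gm10807, is 1 of the 2 genes that share read-length stretches with Duxf3, and it stood at 1.42, 11.9 and 1.67 RPKM in vivo. How reads shared between Gm10807 and Duxf3 were placed was not tested. Gm21028 was at 13.1, 39.8 and 1.48 RPKM in vivo and at 0 in all 6 NT libraries. In the other direction, 2 of 4261 genes on in all 6 NT libraries were under 0.1 RPKM in all 3 in vivo libraries.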
